A study of Homo sapiens with 6 samples.

Results

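The cluster of microRNAs (miRNAs) of chromosome band Xq26.3 that begins with miR-424 was examined in A549 cells, a human lung adenocarcinoma line, after knockdown of APE1. This protein, the product of APEX1, cuts DNA at abasic sites during base excision repair. The 5 members, hsa-miR-424-5p, hsa-miR-503-5p, hsa-miR-450a-5p, hsa-miR-450b-5p and hsa-miR-542-3p, were found by probe name among the 798 human miRNA probes of the panel. They were chosen by their measured values: in these same libraries the members of 1 genomic cluster differed in direction between the groups, and so did their ratios within a library. Both are therefore given for them as a description and without a test. The groups were 3 libraries of A549 cells that received the APE1 siRNA (siAPE1) and 3 of cells that received the scramble siRNA (siSCR). Both siRNAs were given at 100 pmol, and RNA was taken after 72 h. All cells were of the same line and all received an siRNA and the transfection reagent, so no untransfected cells are in the comparison and 1 siRNA sequence stands for the knockdown. APEX1 mRNA is not among the probes, and its depletion could not be checked here.

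A miRNA is cut from a hairpin in a longer primary transcript, first by Drosha in the nucleus and then by Dicer in the cytoplasm, and 1 arm of the resulting duplex is usually kept in Argonaute. Hairpins that lie close together on 1 strand are often made from a shared primary transcript, as has been described for miR-424 (miR-322 in mouse) and miR-503. The bases near the 5′ end of the mature strand, the seed, carry most of the pairing to target mRNAs. miR-424-5p and miR-503-5p belong to the extended miR-15/16 family, which is known for repressing cyclins and other genes of the cell cycle.

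The mature sequences of the members that were measured above background are shown because miR-424-5p and miR-503-5p, which differed in direction, carry closely related seeds, while the seeds of the miR-450 members are related to each other. They are from RefSeq (GRCh38.p14, minus strand of chromosome X) and are written 5′ to 3′ with the seed, bases 2 to 8, in capitals.
miR-424-5p (chrX:134546680-134546701): cAGCAGCAauucauguuuugaa
miR-503-5p (chrX:134546371-134546393): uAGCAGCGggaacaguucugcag
miR-450a-5p (chrX:134540564-134540585 and chrX:134540393-134540414): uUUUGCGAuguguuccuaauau
miR-450b-5p (chrX:134540231-134540252): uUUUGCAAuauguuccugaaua
Of the 17 miRNAs looked up by name, 16 were matched, 4 of the 5 members among them. Counted from 1 at the 5′ end, the seeds of miR-424-5p and miR-503-5p differed by A8G (the base of miR-424-5p first), and 12 of their first 22 bases were identical. The seeds of miR-450a-5p and miR-450b-5p differed by G7A (the base of miR-450a-5p first), with 16 of 22 bases identical. The mature miR-450a-5p is the same from its 2 hairpins, MIR450A2 and MIR450A1, so its probe reads their sum. The seed of miR-424-5p was shared by 6 other human miRNAs of the table, and those of miR-450a-5p, miR-450b-5p and miR-503-5p by 0.

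The 3 relatives of miR-424-5p with the same seed that were also measured above background differ from it only outside the seed, and are set beside it below.
miR-15a-5p (chr13:50049167-50049188): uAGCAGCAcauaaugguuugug
miR-15b-5p (chr3:160404607-160404628): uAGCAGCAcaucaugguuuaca
miR-16-5p (chr3:160404754-160404775 and chr13:50049027-50049048): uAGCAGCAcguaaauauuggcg
Of the 22 positions, miR-424-5p shared 15 with miR-15a-5p, 16 with miR-15b-5p and 12 with miR-16-5p.

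The 6 hairpin genes of the cluster lie within 6527 bases on the minus strand and run, 5′ to 3′, MIR424, MIR503, MIR542, MIR450A2, MIR450A1 and MIR450B. Between MIR424 and MIR503 there are 215 bases. The longest gap, of 4890 bases, separates MIR503 from MIR542, which is followed after 733 bases by MIR450A2. The 3 miR-450 hairpins are 76 and 78 bases apart. The annotated long non-coding RNA gene MIR503HG holds the whole MIR503 hairpin and 17 bases of the MIR424 hairpin, and overlaps none of the others.

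**Figure D1:**
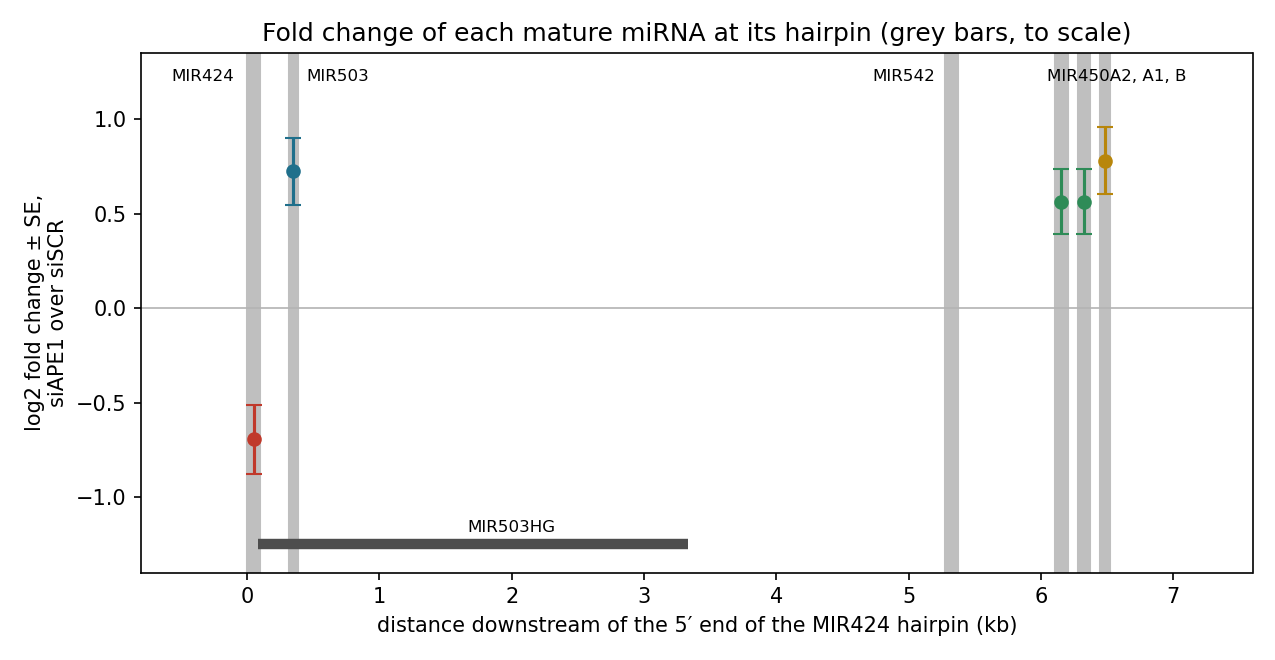
Log2 fold change (siAPE1 over siSCR, y axis, with its SE) of each mature miRNA at the place of its hairpin (grey bars, distance from the 5′ end of the MIR424 hairpin in kb on the x axis), with MIR503HG as a dark bar. miR-424-5p lies at -0.70 and miR-503-5p, 215 bases further, at 0.72. miR-450a-5p is drawn at both of its hairpins, and no value is drawn at MIR542 because its miRNAs were not above background.

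Levels are raw probe counts divided by a scaling factor per library, from the positive controls and the housekeeping mRNAs (scaled counts). The totals were 312152 to 331524 counts per library in siAPE1 and 370087 to 488407 in siSCR, and 127 to 135 miRNAs in siAPE1 libraries and 151 to 169 in siSCR libraries lay above background, taken as the mean plus 2 SD of a library's negative controls (53.1 to 75.8 counts). A miRNA was tested when above background in at least 3 of the 6 libraries, which left 152. With this filter and scaling, the median log2 fold change of the 152 was -0.34 (range -2.75 to 1.14), with 60.5% called by edgeR's quasi-likelihood test at an adjusted p of 0.1 (9.87% higher and 50.7% lower). Some of the 152 were above background in 3 siSCR and 0 siAPE1 libraries, and so passed the filter through siSCR. Of the 123 miRNAs above background in all 6 libraries, 68 were called (13 higher, 55 lower), and their median was -0.29. Over all 798 probes without the filter, most of them at background, the median was 0.22, and under TMM scaling that of the 152 was 0.02. Of the 6 epithelial marker miRNAs, 4 were above background in at least 1 library, and 2 (miR-21-5p and miR-200b-3p) were tested. The summed epithelial level ran from 13504 to 16674 in siAPE1 and from 17057 to 18905 in siSCR. Nearly all of it was miR-21-5p (means 15091 in siAPE1 and 17756 in siSCR), which was not called (adjusted p = 0.196 by edgeR). The other markers were at or near background. Of these, miR-200b-3p and miR-200c-3p had lower means in siAPE1, and miR-141-3p, miR-200a-3p and miR-429 higher ones. The sum therefore gives no direction for the epithelial markers as a set. Of the 12 markers of blood, muscle, stroma, neurons and liver, 0 were tested and 1, of blood, was above background in any library. The endothelial marker miR-126-3p was above background in every library and lower in siAPE1 (422 ± 36.9 against 683 ± 146 scaled counts in siSCR, SD, n = 3 each; log2 fold change -0.69, adjusted p = 0.000199 by edgeR). The part of this marker in the values of the cluster was not tested.

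Of the 5 members, 4 passed the filter, and each of these was above background in all 6 libraries. In all 4 the scaled counts of the groups did not overlap, against 59.9% of the 152 tested miRNAs. The 3 siAPE1 libraries lay wholly above siSCR for miR-450a-5p, miR-450b-5p and miR-503-5p (7.24% of the tested miRNAs) and wholly below for miR-424-5p (52.6%). The cluster was chosen for this contrast, so nothing is read from its counts.

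hsa-miR-424-5p was the most abundant member in every library by probe count. Its scaled counts were 1348, 1731 and 2325 in siAPE1 and 3114, 2814 and 2819 in siSCR. All 3 siAPE1 libraries were below the lowest siSCR library, and replicate 1 was the lowest of them. The means were 1801 ± 493 in siAPE1 and 2916 ± 172 in siSCR (SD, n = 3 each), a log2 fold change of -0.70 (SE 0.18). The siAPE1 libraries spread more: the coefficient of variation was 27.3% in siAPE1, the 4th highest of the 152 tested miRNAs (median 12.3%), against 5.89% in siSCR (rank 131, median 11.0%). The raw counts, 1291, 1653 and 1901 in siAPE1 and 3514, 3774 and 2491 in siSCR, did not overlap either.

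hsa-miR-503-5p, whose hairpin is the nearest to that of miR-424, went the other way. Its scaled counts were 1302, 1373 and 1470 in siAPE1 and 736, 804 and 972 in siSCR. The lowest siAPE1 library stood above the highest siSCR library. The means were 1382 ± 84.5 in siAPE1 and 837 ± 121 in siSCR (SD, n = 3 each), a log2 fold change of 0.72 (SE 0.18). Its raw counts were also wholly higher in siAPE1 (1202 to 1311, against 831 to 1078 in siSCR), although the siAPE1 libraries had the lower totals.

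hsa-miR-450a-5p, read from its 2 hairpins together, had 907, 1127 and 1244 scaled counts in siAPE1 and 713, 711 and 794 in siSCR. The siSCR libraries lay close together and the lowest siAPE1 value was above them. The means were 1093 ± 171 in siAPE1 and 740 ± 47.3 in siSCR (SD, n = 3 each), a log2 fold change of 0.56 (SE 0.17). Before scaling the groups overlapped (869, 1076 and 1017 raw counts in siAPE1 and 805, 954 and 702 in siSCR), so that the separation of its levels depended on the scaling.

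hsa-miR-450b-5p was the weakest of the 4 by probe count, with 126, 141 and 143 scaled counts in siAPE1 and 70.9, 88.0 and 79.2 in siSCR. These values were close to background, at 1.60 to 2.11 times the limit in siAPE1 and 1.03 to 1.67 times in siSCR. The means were 137 ± 9.23 in siAPE1 and 79.4 ± 8.55 in siSCR (SD, n = 3 each), a log2 fold change of 0.78 (SE 0.18). Raw counts overlapped here too (117 to 135 in siAPE1 and 70 to 118 in siSCR). With the mean of the negative controls subtracted, the log2 difference was 0.94.

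hsa-miR-542-3p was not above background in any library. Its raw counts were 32, 32 and 51 in siAPE1 and 49, 41 and 31 in siSCR, within the range of the negative controls, and a difference was not detectable at this depth. The other arms of the hairpins were likewise at background: miR-503-3p, miR-542-5p, miR-450a-1-3p, miR-450a-2-3p and miR-450b-3p, 5 probes in all, were above the limit in 0 libraries, and miR-424-3p has no probe on the panel. Whether the opposite arms followed the arms measured could therefore not be read.

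**Figure D2:**
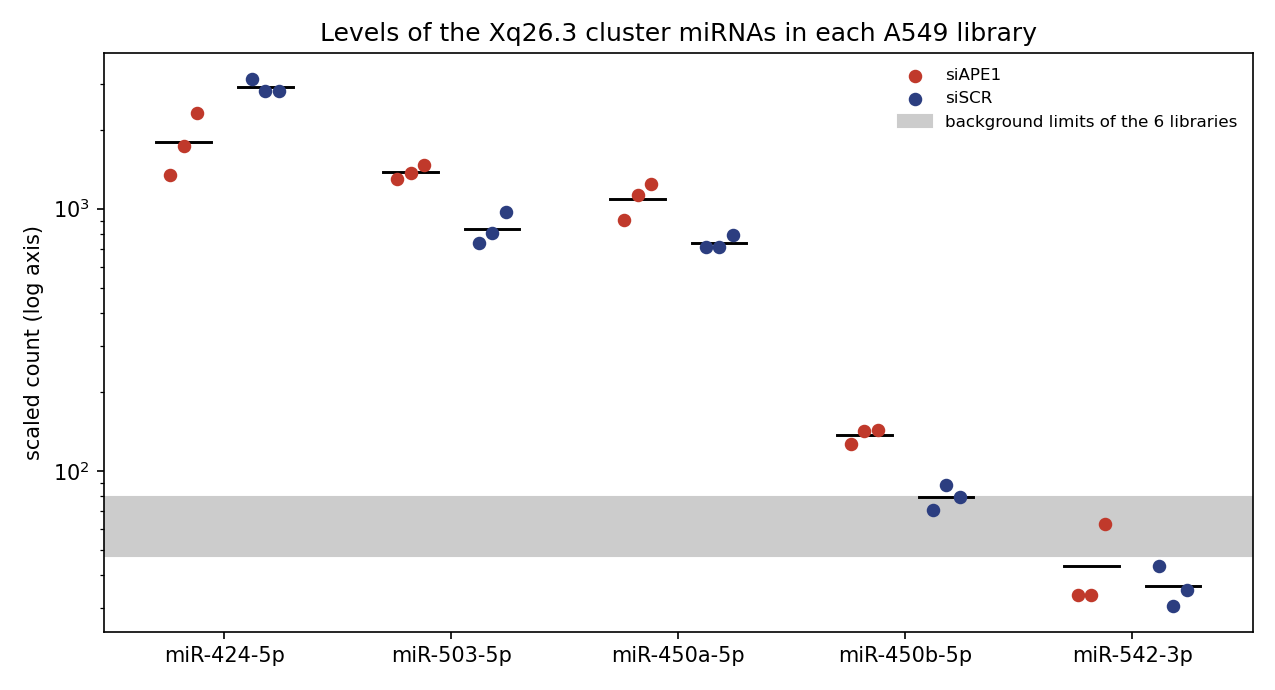
Scaled counts (y axis, log scale) of the 5 members in each library, siAPE1 in red and siSCR in blue, with a line at each group mean (n = 3) and the 6 background limits as a grey band. The siAPE1 points of miR-424-5p lie below those of siSCR, those of miR-450a-5p, miR-450b-5p and miR-503-5p above, and miR-542-3p was below its own library's limit in all 6.

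Ratios between 2 probes of 1 library do not depend on the scaling factor. Their absolute size reflects how well each probe captures its miRNA, so only the change between libraries is described. The ratio of miR-424-5p to miR-503-5p was 1.04, 1.26 and 1.58 in siAPE1 and 4.23, 3.50 and 2.90 in siSCR. All 3 siAPE1 ratios were below the lowest siSCR ratio. The 95% counting intervals ran from 0.957 to 1.70 over the siAPE1 libraries and from 2.68 to 4.57 over the siSCR libraries, and cover counting error only. On the log2 scale the ratio was 0.35 ± 0.31 in siAPE1 and 1.81 ± 0.27 in siSCR (SD, n = 3 each), a difference of -1.46 that corresponds to a 2.75 times lower ratio. The closest siAPE1 and siSCR libraries were 0.87 apart on the log2 scale.

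The same was found against both miR-450 members. miR-424-5p over miR-450a-5p was 1.49, 1.54 and 1.87 in siAPE1 and 4.37, 3.96 and 3.55 in siSCR (log2 difference -1.28). miR-424-5p over miR-450b-5p was 10.7, 12.2 and 16.2 in siAPE1 and 43.9, 32.0 and 35.6 in siSCR (log2 difference -1.52). In neither pair did the groups overlap, and the siAPE1 ratio was highest in replicate 3, the siAPE1 library with the most miR-424-5p. Against the geometric mean of the other 3 measured members, the ratio was 2.54, 2.87 and 3.64 in siAPE1 and 9.32, 7.62 and 7.15 in siSCR, a log2 difference of -1.42.

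Among miR-450a-5p, miR-450b-5p and miR-503-5p the ratios overlapped between the groups. miR-503-5p over miR-450a-5p was 1.43, 1.22 and 1.18 in siAPE1 and 1.03, 1.13 and 1.22 in siSCR (log2 difference 0.18). miR-503-5p over miR-450b-5p was 10.3, 9.71 and 10.3 in siAPE1 and 10.4, 9.14 and 12.3 in siSCR (log2 difference -0.06). In the first pair the overlap was slight, as 2 of the 3 siSCR libraries lay below all siAPE1 libraries, and in the second the siAPE1 ratios lay within the range of siSCR. Small shifts could go unseen with 3 libraries a group. miR-450a-5p over miR-450b-5p was 7.18, 7.97 and 8.69 in siAPE1 and 10.1, 8.08 and 10.0 in siSCR (log2 difference -0.24, or -0.39 with the negative-control mean subtracted). Here too the overlap was slight, as 2 of the 3 siSCR libraries lay above all siAPE1 libraries.

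**Figure D3:**
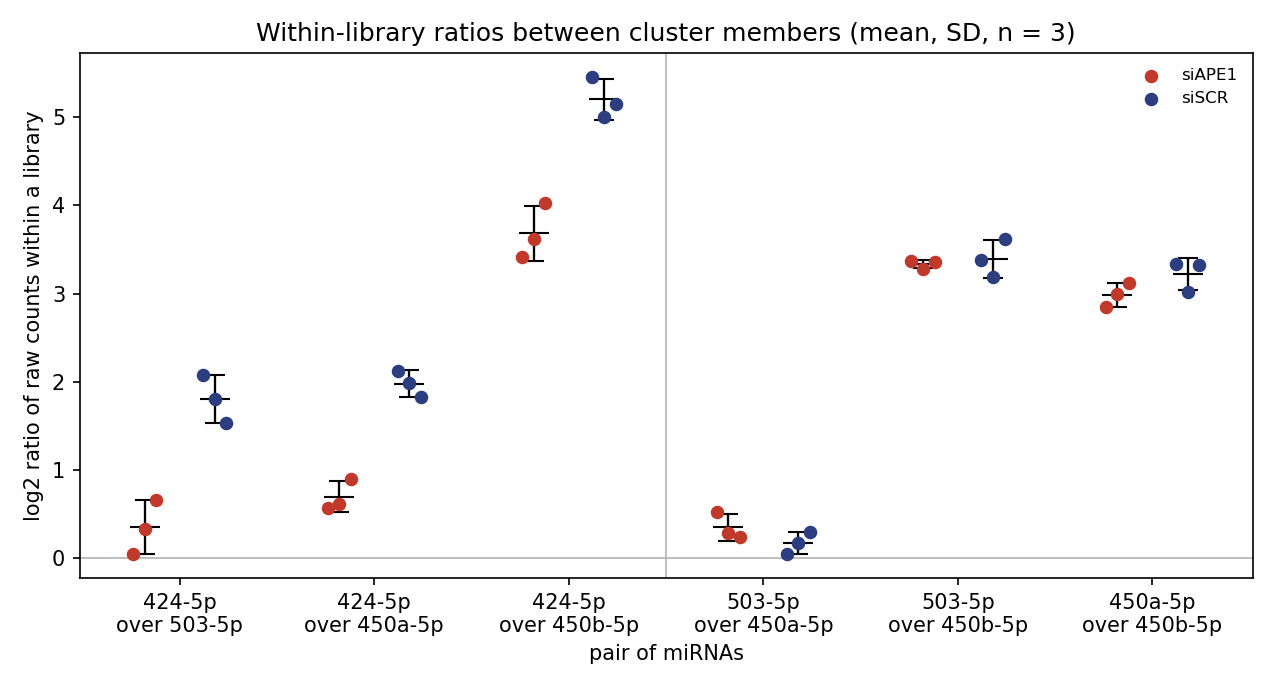
Log2 ratio of raw counts within each library (y axis) for the 6 pairs of measured members (x axis), siAPE1 in red and siSCR in blue, with the mean and SD of 3 libraries. In the 3 pairs left of the line, which hold miR-424-5p, the siAPE1 points lie below the siSCR points with a gap of at least 0.87, and in the 3 pairs right of it the groups overlap.

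Over the 6 libraries, log2 scaled counts of miR-450a-5p, miR-450b-5p and miR-503-5p ran together, with Pearson r = 0.94 for miR-503-5p and miR-450a-5p, 0.95 for miR-503-5p and miR-450b-5p and 0.91 for the miR-450 pair. miR-424-5p had r = -0.75 with miR-503-5p, -0.54 with miR-450a-5p and -0.77 with miR-450b-5p. These coefficients are descriptions over 6 libraries that fall into 2 groups and share their scaling factors, so the group difference makes up much of each.

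Set against the median tested miRNA of the same library, another measure free of scaling, the members were placed as follows. miR-503-5p was 2.60, 2.59 and 2.48 log2 units above that median in siAPE1 and 1.38, 1.38 and 1.46 above it in siSCR. miR-450a-5p was above it by 2.08, 2.30 and 2.24 log2 units in siAPE1 and by 1.33, 1.21 and 1.17 in siSCR. miR-450b-5p was below it, between -0.88 and -0.69 in siAPE1 and between -2.16 and -1.81 in siSCR. All 3 thus stood about 1 log2 unit higher relative to the tested miRNAs in siAPE1, without overlap (difference 1.15 for miR-503-5p, 0.97 for miR-450a-5p and 1.21 for miR-450b-5p). miR-424-5p was above the median by 2.65, 2.92 and 3.14 log2 units in siAPE1 and by 3.46, 3.19 and 2.99 in siSCR. Its groups overlapped, with a difference of -0.31. These differences hold against the median of the 152 tested miRNAs only.

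Ranks of raw counts within a library were taken from the most abundant of the 798 probes. miR-424-5p ranked 27, 24 and 23 in siAPE1 and 19, 23 and 24 in siSCR, which overlap. miR-503-5p ranked 28, 28 and 29 in siAPE1 and 41, 40 and 38 in siSCR, and miR-450a-5p ranked 31 in each siAPE1 library and 43, 44 and 45 in siSCR. miR-450b-5p ranked 95 to 99 in siAPE1 and 128 to 149 in siSCR.

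The size of each fold change depended on the scaling, which moved all 4 together. Under the 5 other scalings, miR-424-5p lay between -1.16 (positive controls only) and -0.36 (TMM). miR-503-5p lay between 0.32 and 1.09, miR-450a-5p between 0.14 and 0.91 and miR-450b-5p between 0.36 and 1.13, in each case lowest with positive controls only. The median of the 152 tested miRNAs moved from -0.75 (positive controls only) to 0.02 (TMM and the 100 most abundant probes). The direction of the 4 members was the same under each of these scalings and the other alternatives, 18 for each member. For miR-450a-5p with positive controls only, however, the value was smaller than its SE (0.14, SE 0.16).

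**Figure D4:**
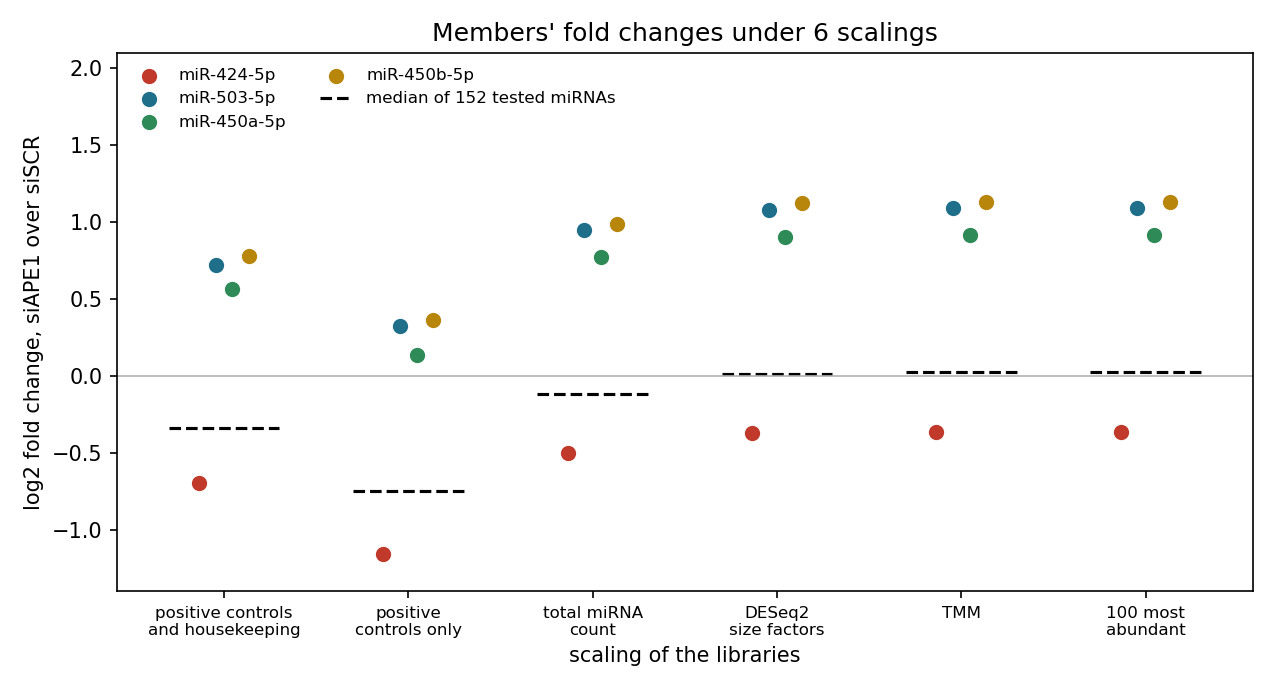
Log2 fold change (siAPE1 over siSCR, y axis) of the 4 measured members under 6 ways of scaling the libraries (x axis), with the median of the 152 tested miRNAs as a dashed line. The 4 points shift together with the median, miR-424-5p lies below 0 and the other 3 above it, and with positive controls only miR-450a-5p comes down to 0.14.

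The miR-15/16 family was examined outside the cluster, since it shares the seed of miR-424-5p. Of its 6 other members, 5 had a probe and 3 were tested. Of these, 0 were called in either direction at an adjusted p of 0.1 by edgeR, against 60.5% of the 152 tested miRNAs. The count was also 0 by the DESeq2 test with the same scaling, and 0 at an unadjusted p under 0.05. miR-15a-5p had 2345 ± 502 scaled counts in siAPE1 and 2784 ± 143 in siSCR (SD, n = 3 each), a log2 fold change of -0.25 (SE 0.18, adjusted p = 0.231 by edgeR). miR-15b-5p had a log2 fold change of -0.15 (SE 0.18, adjusted p = 0.475 by edgeR) and miR-16-5p, which is made from 2 loci, of 0.07 (SE 0.18, adjusted p = 0.756 by edgeR). The median of the 3 was -0.15, against -0.34 for all tested miRNAs. Under TMM scaling the median of the 3 was 0.21 and miR-15b-5p and miR-16-5p were called higher, whereas with positive controls only it was -0.58 and all 3 were called lower, so that no direction can be given for this family. Without replicate 3 of siAPE1, miR-15a-5p was called lower (-0.41, adjusted p = 0.0254 by edgeR). miR-195-5p and miR-497-5p were not tested, and miR-6838-5p has no probe.

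Within a library, miR-424-5p was lower relative to each of these relatives in siAPE1. The log2 ratio of miR-424-5p to miR-15a-5p was -0.39 ± 0.09 in siAPE1 and 0.07 ± 0.16 in siSCR (SD, n = 3 each). Against miR-15b-5p it was -1.38 ± 0.17 in siAPE1 and -0.81 ± 0.17 in siSCR, and against miR-16-5p it was -1.37 ± 0.26 in siAPE1 and -0.56 ± 0.27 in siSCR. The groups did not overlap in any of the 3. For miR-503-5p the ratios ran the other way: to miR-15a-5p the log2 ratio was -0.74 ± 0.23 in siAPE1 and -1.74 ± 0.15 in siSCR, to miR-15b-5p it was -1.73 ± 0.14 in siAPE1 and -2.62 ± 0.11 in siSCR, and to miR-16-5p it was -1.72 ± 0.06 in siAPE1 and -2.37 ± 0.06 in siSCR. The last was the tightest of them. These ratios hold the values that chose the members and are likewise a description.

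The neighbouring cluster of band Xq26.2, the miR-106a-363 cluster, is a paralogue of the miR-17-92 cluster. Of its 6 members, 4 were tested and 1 was called lower, against 50.7% of the 152 tested miRNAs. It was miR-19b-3p, with 488 ± 68.0 scaled counts in siAPE1 and 671 ± 53.7 in siSCR (SD, n = 3 each; log2 fold change -0.46, SE 0.17, adjusted p = 0.0137 by edgeR). The probe shared by miR-106a-5p and miR-17-5p gave -0.30 (adjusted p = 0.118) and that shared by miR-20a-5p and miR-20b-5p gave -0.31 (adjusted p = 0.108), both by edgeR. miR-92a-3p gave 0.36 (adjusted p = 0.102 by edgeR), and without replicate 3 of siSCR 0.76 (adjusted p = 6.5e-05), when it was called higher. The median of the 4 was -0.30, near that of all tested miRNAs, and 0.06 under TMM scaling, which no longer called miR-19b-3p (-0.10, adjusted p = 0.265 by edgeR) and called miR-92a-3p higher. Those mature miRNAs, or probes, are also supplied by the miR-17-92 locus and the 2 sources cannot be told apart. miR-18b-5p and miR-363-3p, particular to Xq26.2, were not tested.

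The spread among members was set beside that of other genomic clusters. Of the listed clusters, 21 had at least 2 tested members, the Xq26.3 cluster included and that of Xq26.2 left aside. The log2 fold changes of the Xq26.3 members spanned 1.48, the widest of the 21 listed. Next came the miR-23a cluster, with a span of 1.22 between miR-24-3p (-0.99) and miR-23a-3p (0.23), and the miR-17-92 cluster, with 1.00 between miR-19a-3p (-0.64) and miR-92a-3p (0.36). miR-24-3p is also made from the miR-23b cluster, and miR-92a-3p from that of Xq26.2. The large cluster of band 14q32 was not among those listed. There miR-376a-3p was called lower (-1.34, adjusted p = 8.55e-13) and miR-494-3p higher (0.81, adjusted p = 2.45e-05), both by edgeR. Both were above background in every library. These values lie outside the range of the Xq26.3 members, so neither the width nor the split direction is particular to Xq26.3. The median span of the other 20 listed was 0.302. These 20 are not independent. Besides miR-24-3p, the probes of miR-16-5p, miR-29b-3p, miR-125b-5p, let-7a-5p and let-7f-5p were each shared between clusters of the 20. Of the 20 listed, 0 had a member called higher at an adjusted p of 0.1 by edgeR. The count was also 0 at an unadjusted p under 0.05 and by the DESeq2 test, which was run with the same scaling. It holds for the listed clusters only and leaves out 14q32, where miR-494-3p was called higher. The count also rested on the scaling. Of the 20, 11 had a member called higher under TMM scaling or DESeq2 size factors, and 7 with the total miRNA count. A span is nearly free of the scaling but grows with the number of members tested, which was 2 or 3 in most clusters and 4 here, and the Xq26.3 cluster was chosen for its spread.

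**Figure D5:**
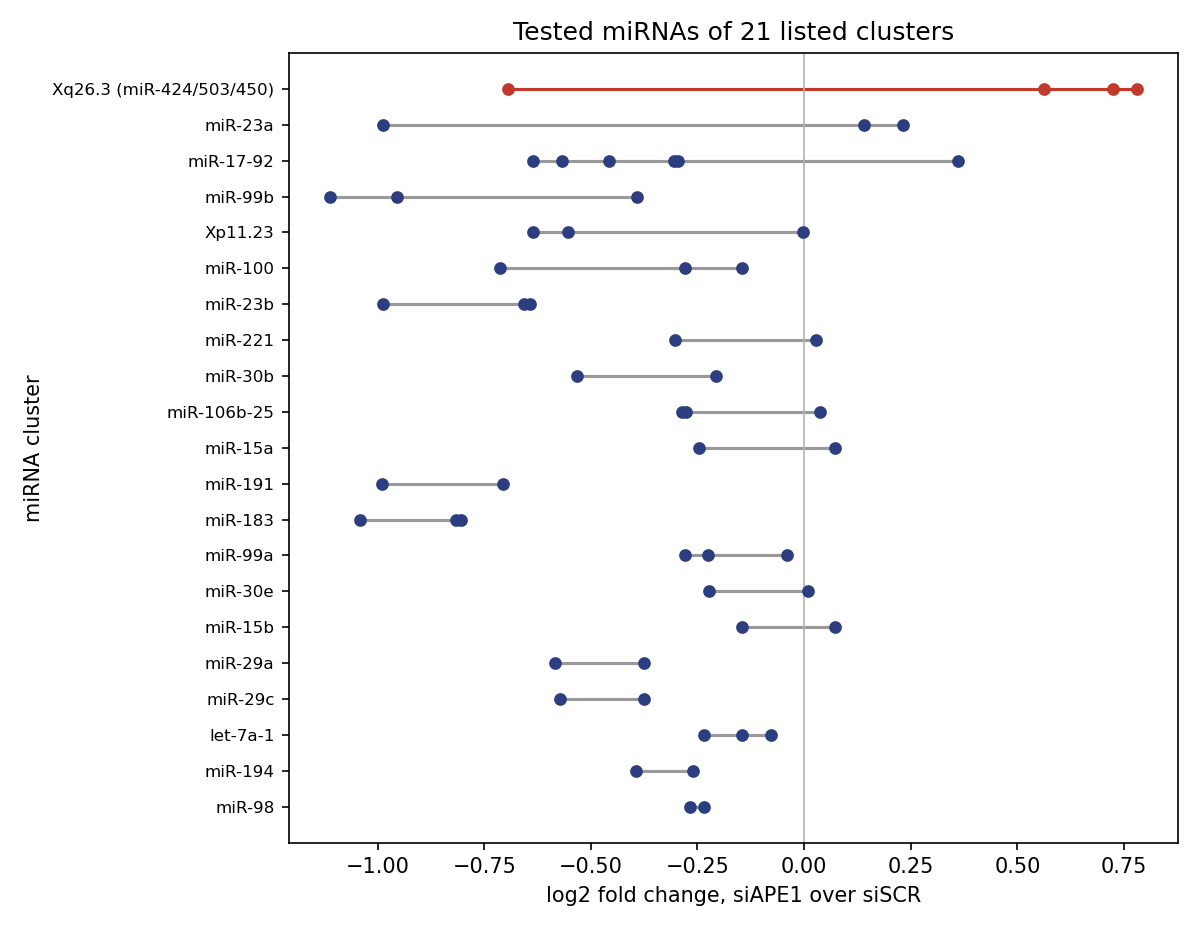
Log2 fold change (siAPE1 over siSCR, x axis) of each tested miRNA in the 21 listed clusters with at least 2 tested members (y axis, ordered by span). The points of the Xq26.3 cluster, in red, run from -0.70 to 0.78, those of the miR-23a cluster from -0.99 to 0.23, and the median span of the 20 other clusters was 0.302.

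Outside the cluster, the miRNAs whose log2 scaled counts followed a member most closely over the 6 libraries were different for miR-424-5p and for the other 3. For miR-424-5p they were miR-28-5p (r = 0.997), miR-194-5p (r = 0.988) and miR-9-5p (r = 0.986), with log2 fold changes of -0.66, -0.39 and -0.41. For miR-503-5p they were miR-1246 (r = 0.988), the probe shared by miR-4454 and miR-7975 (r = 0.961) and miR-3144-3p (r = 0.960), with log2 fold changes of 0.99, 0.73 and 0.65. For miR-450a-5p they were miR-193b-3p (r = 0.959, log2 fold change 0.33), the miR-4454 and miR-7975 probe (r = 0.936) and miR-1246 (r = 0.912). For miR-450b-5p they were miR-210-3p, a miRNA known for its induction in hypoxia (r = 0.908, log2 fold change 0.92), the miR-4454 and miR-7975 probe (r = 0.906) and miR-1246 (r = 0.895). The probe of miR-4454 and miR-7975 and that of miR-1246 were thus near all 3. Of these companions, miR-1246 was above background in 3 siAPE1 and 0 siSCR libraries, and miR-210-3p in 3 and 1. Both therefore passed the filter through siAPE1, where they were higher. These coefficients were picked as the highest of the panel, over 6 libraries that share their scaling factors, and are a description.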

How the data were processed

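miRNAs were measured on the nCounter human v3 panel (822 probes) in 3 siAPE1 and 3 siSCR libraries. Groups and replicate numbers are those of the sample titles. Nothing in the labels says that replicates were separate cultures, so p-values measure the spread between these samples. The authors deposited raw counts per probe for each library, without correction. They also deposited a table of scores, in which a miRNA probe followed its raw count linearly, with 1 slope and 1 offset per probe across libraries (126 probes with a score of at least 30 throughout, slopes 0.761 to 1.26, largest residual 0.640), so no scaling between libraries is in it. How it was made is not given in the sources used here, and it served as an alternative only. The study's methods name NanoStringDiff, which was not run.

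Each library's scaling factor was the product of a positive-control factor (slope of 6 controls) and a housekeeping factor (5 mRNAs, negative-control mean subtracted), and was 0.958, 0.955 and 0.817 in siAPE1 and 1.13, 1.34 and 0.884 in siSCR. Background was not subtracted from levels, so fold changes near background are compressed. The 152 miRNAs above background in at least 3 of 6 libraries were fitted in R 4.3.3 with edgeR 4.0.16 (robust quasi-likelihood test on raw counts, scaling factors as library sizes, two-sided, Benjamini-Hochberg over the 152, threshold 0.1). The edgeR procedure was tested on simulated data. Alternatives were other scalings, filters, DESeq2 1.42.0, limma 3.58.1 on log2(score + 1), subtraction of background, each library left out and the replicate number as a block. The members and lists were chosen with earlier results of these data known. Named were the members, the tested miRNAs of the lists, the 3 miRNAs most correlated with each member, and the extreme members of the 2 widest other clusters. Sequences and positions are from RefSeq, GRCh38.p14.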

Additional observations from a re-analysis of the deposited data

How the results depend on the processing

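For the 4 measured members no alternative changed the direction of the log2 fold change, although that of miR-450a-5p was smaller than its SE with positive controls only. With TMM scaling miR-424-5p had -0.36, miR-503-5p 1.09, miR-450b-5p 1.13 and miR-450a-5p 0.91. With the 100 most abundant probes they had, in this order, -0.37, 1.09, 1.13 and 0.91, with DESeq2 size factors -0.37, 1.08, 1.12 and 0.90, and with positive controls only -1.16, 0.32, 0.36 and 0.14. Scaled to the total miRNA count, miR-503-5p had 0.95, miR-450b-5p 0.99 and miR-450a-5p 0.77. In the authors' table, tested with limma, miR-424-5p had -1.02, miR-503-5p 0.47 and miR-450a-5p 0.28. In that table divided by the scaling factors, an alternative chosen after seeing the data, miR-450b-5p had 1.01, and 0.94 with the negative-control mean subtracted from counts. With 1 library left out, miR-424-5p ranged from -0.92 to -0.52, miR-503-5p from 0.64 to 0.84, miR-450b-5p from 0.70 to 0.87 and miR-450a-5p from 0.46 to 0.68. The log2 ratio of miR-424-5p to miR-503-5p ranged from -1.62 to -1.31 and that to the other 3 members from -1.56 to -1.30 over 9 alternatives each.

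Over the panel, 92 miRNAs were called (15 higher, 77 lower), 93 with TMM (47 higher, 46 lower), 97 with DESeq2 size factors (47 higher, 50 lower), 97 with the total count (32 higher, 65 lower), 93 with the 100 most abundant probes (47 higher, 46 lower), 134 with positive controls only (6 higher, 128 lower), 121 with the authors' table (8 higher, 113 lower), 152 of 798 without a filter (78 higher, 74 lower) and 78 to 108 with 1 library left out. Of the other arms, 1 (miR-503-3p, 0.58, adjusted p = 0.0768 by edgeR) was called without a filter. It was above background in 0 libraries and its scaled counts overlapped between the groups, so no direction is read from it. Of the miR-15/16 family 2 were called higher with TMM, DESeq2 size factors or the 100 most abundant probes and 1 higher with the total count, whereas 2 were called lower with the authors' table, 3 lower with positive controls only and 0 to 1, lower, with 1 library left out. Of the Xq26.2 cluster 3 were called lower with positive controls only, the DESeq2 test or the authors' table, 2 with the total count (1 higher, 1 lower), 1 higher with TMM, DESeq2 size factors or the 100 most abundant probes, and 1 to 2 with 1 library left out.

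With the replicate number as a block, 116 were called over the panel, 1 of the miR-15/16 family (miR-15a-5p, -0.27) and 3 of the Xq26.2 cluster, all lower. miR-424-5p had -0.73, miR-503-5p 0.73, miR-450b-5p 0.78 and miR-450a-5p 0.55. Same-numbered libraries did not deviate together (correlations -0.59, -0.01 and -0.50). With 3 libraries a group this cannot settle whether the numbers pair the samples, and the labels do not say. Precision is limited by 3 libraries a group and, for miR-450b-5p and miR-542-3p, by counts at or near the negative controls.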
